A study of Mus musculus with 6 samples.

Results

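Amino acid and peptide transporter genes were read out in intestinal organoids treated with retinoic acid. The genes were taken by name, as every row of the count table in the solute carrier (SLC) families 1, 3, 6, 7, 15, 36, 38 and 43. This gave 64 of 21534 rows. They are 7 genes of family 1, 2 of family 3, 17 of family 6, 15 of family 7, 5 of family 15, 4 of family 36, 11 of family 38 and 3 of family 43. The name rule also takes in Slc7a6os, a gene on the opposite strand beside Slc7a6 that is not known as a transporter, and several carriers of neurotransmitters, taurine, creatine or nucleobases.

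The organoids were grown from ileal crypts of C57Bl/6 wild-type mice and are epithelial cultures of stem cells and their descendants. All of them were first held for 96 hours in medium with 10 µM CHIR99021, a GSK3 inhibitor that activates Wnt signalling and so favours stem cells. The tested libraries received 10 µM retinoic acid, which is made from vitamin A, for 24 hours, and the others received vehicle (DMSO) for the same time, with 3 libraries in each group. Nothing in the labels ties each library to its own animal or culture. The p-values therefore speak only to the spread among these 6 samples, and that spread may be technical.

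Absorptive cells take amino acids up from the gut lumen at the brush border and pass them to the blood through other carriers on the basolateral side. Brush border carriers of the families described here include sodium-driven transporters of family 6, the proton-driven peptide transporter of family 15 and the exchanger made of a family 3 heavy chain and a family 7 light chain. Dividing cells rely more on carriers such as the glutamine transporter Slc1a5, the large neutral amino acid exchanger Slc7a5 with its heavy chain Slc3a2, and the cystine importer Slc7a11. Several of these genes are known targets of ATF4, the transcription factor of the amino acid starvation response.

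Total read counts ran from 14919144 to 21833846 per library. All 7 general epithelial markers (such as Epcam and Vil1) were tested, and their summed level was 10937 to 11863 CPM (counts per 1000000 of the scaled library size) in retinoic acid libraries and 11076 to 11717 CPM in vehicle libraries. The 6 fibroblast markers summed to 0.101 to 1.22 CPM in retinoic acid libraries and 0.578 to 1.84 CPM in vehicle libraries, and the 3 smooth muscle markers stayed under 1 CPM in sum in every library. The 4 endothelial markers and the 4 markers of enteric glia and neurons stayed under 3 CPM in sum in every library, and no marker of any list was at 0 in all 6 libraries. The 6 leukocyte markers summed to 26.4 to 30.7 CPM in retinoic acid libraries and 23.8 to 28.7 CPM in vehicle libraries, most of it Csf1r (20.8 ± 1.56 CPM with retinoic acid and 21.1 ± 2.17 CPM with vehicle). The macrophage and lysosome gene Cd68 was higher with retinoic acid, at 7.28 ± 1.42 CPM, against 4.31 ± 0.371 CPM with vehicle (SD, n = 3 each; log2 fold change 0.75, edgeR adjusted p = 0.0216), and its call held in 2 of the 6 fits with 1 library left out. Of 5 stem cell markers Lgr5, Olfm4 and Smoc2 fell with retinoic acid, while 4.09% of all tested genes fell. Smoc2 had 107 ± 8.44 CPM with retinoic acid, against 167 ± 8.30 CPM with vehicle (SD, n = 3 each). Library 3 of each group stood apart from the other 4 libraries on the second principal component, which held 20.0% of the variance, so main counts are also given without it.

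Few of the transporter genes were called as changed with retinoic acid, and most differences between the groups were small. Of 64 rows, 40 had enough reads to be tested, and 2 of these rose while 4 fell. The 2 that rose were Slc1a5 and Slc7a11, while Slc7a5 and Slc3a2, named above with them as carriers of dividing cells, were not called. The 4 that fell were Slc6a14, Slc3a1, Slc43a2 and the serotonin transporter Slc6a4. A gene is said to have risen or fallen where edgeR's quasi-likelihood test gave a p under 0.05 after Benjamini-Hochberg adjustment over all 13700 tested genes. Across all these genes 9.46% were called, as 5.37% rose and 4.09% fell, while 5.0% of the 40 transporter genes rose and 10.0% fell, so the share that rose was near the background and the share that fell rests on 4 genes.

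The median log2 fold change of retinoic acid over vehicle was −0.09 for the 40 transporter genes and −0.01 for all tested genes. The median absolute log2 fold change was 0.18 for the transporter genes and 0.12 for all tested genes. Of the 40, 36 differed by less than 1.5-fold between the groups and 1 differed by at least 2-fold. All retinoic acid libraries lay above all vehicle libraries for 4 of the 40 (background 12.9%), and all lay below for 9 (background 12.6%). Without library 3 of both groups, 3 transporter genes rose and 6 fell. Over all genes 922 then rose and 734 fell, against 736 and 560 with all libraries. All 40 but Slc7a2 passed the low-count filter in every library of both groups. In bulk samples, fewer cells of a type and less RNA per cell cannot be told apart.

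**Figure D1:**
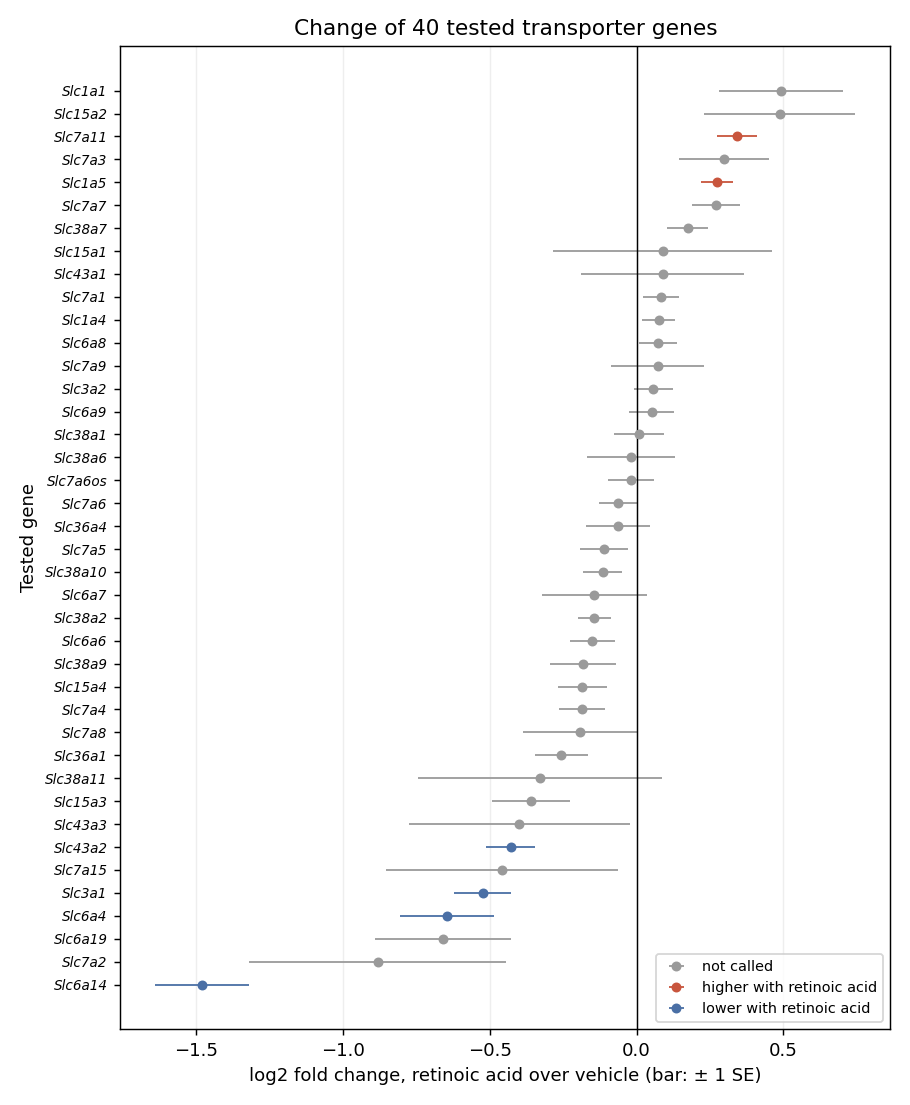
The plot gives the log2 fold change of retinoic acid over vehicle (x axis, bar: 1 SE either way) for each of the 40 tested genes (y axis, sorted). Slc1a5 and Slc7a11 are marked as higher and Slc6a14, Slc3a1, Slc43a2 and Slc6a4 as lower, and Slc6a14 lies farthest from 0 at −1.48.

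Levels between genes are compared as CPM per kilobase of merged exons. By this measure Slc1a5, which exchanges glutamine and other neutral amino acids, was the most abundant of the 64 genes, at 233 ± 10.8 with retinoic acid and 193 ± 6.83 with vehicle (SD, n = 3 each). Next came the heavy chain Slc3a2 (110.2 ± 4.70 with retinoic acid and 106 ± 8.93 with vehicle) and its light chain Slc7a5 (99.7 ± 5.83 with retinoic acid and 108 ± 14.1 with vehicle). Their ranges overlapped with vehicle, while Slc7a5 was below Slc3a2 in every retinoic acid library. Slc1a4, a close relative of Slc1a5, stood at 67.1 ± 2.66 with retinoic acid and 63.7 ± 1.12 with vehicle. The sodium-coupled glutamine carriers Slc38a2 and Slc38a1 followed at 57.1 ± 2.29 and 55.7 ± 6.04 with retinoic acid, against 63.2 ± 2.24 and 55.4 ± 6.27 with vehicle. The taurine carrier Slc6a6, the cationic amino acid carrier Slc7a1, the light chain Slc7a7 and the creatine carrier Slc6a8 completed the 10 most abundant, with 31.3 to 49.5 per kilobase across their group means. The same 10 genes ranked highest in both groups and made up 79.8% of the summed level of all 64 genes with retinoic acid and 77.7% with vehicle.

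Carriers that define absorptive enterocytes were low. The brush border peptide transporter Slc15a1 had 0.401 CPM per kilobase with retinoic acid and 0.368 with vehicle. The main brush border carrier of neutral amino acids, Slc6a19, had 1.80 with retinoic acid and 2.86 with vehicle, and the glutamate carrier Slc1a1 had 1.71 with retinoic acid and 1.20 with vehicle. The heavy chain Slc3a1 was more abundant, at 21.6 with retinoic acid and 31.1 with vehicle.

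**Figure D2:**
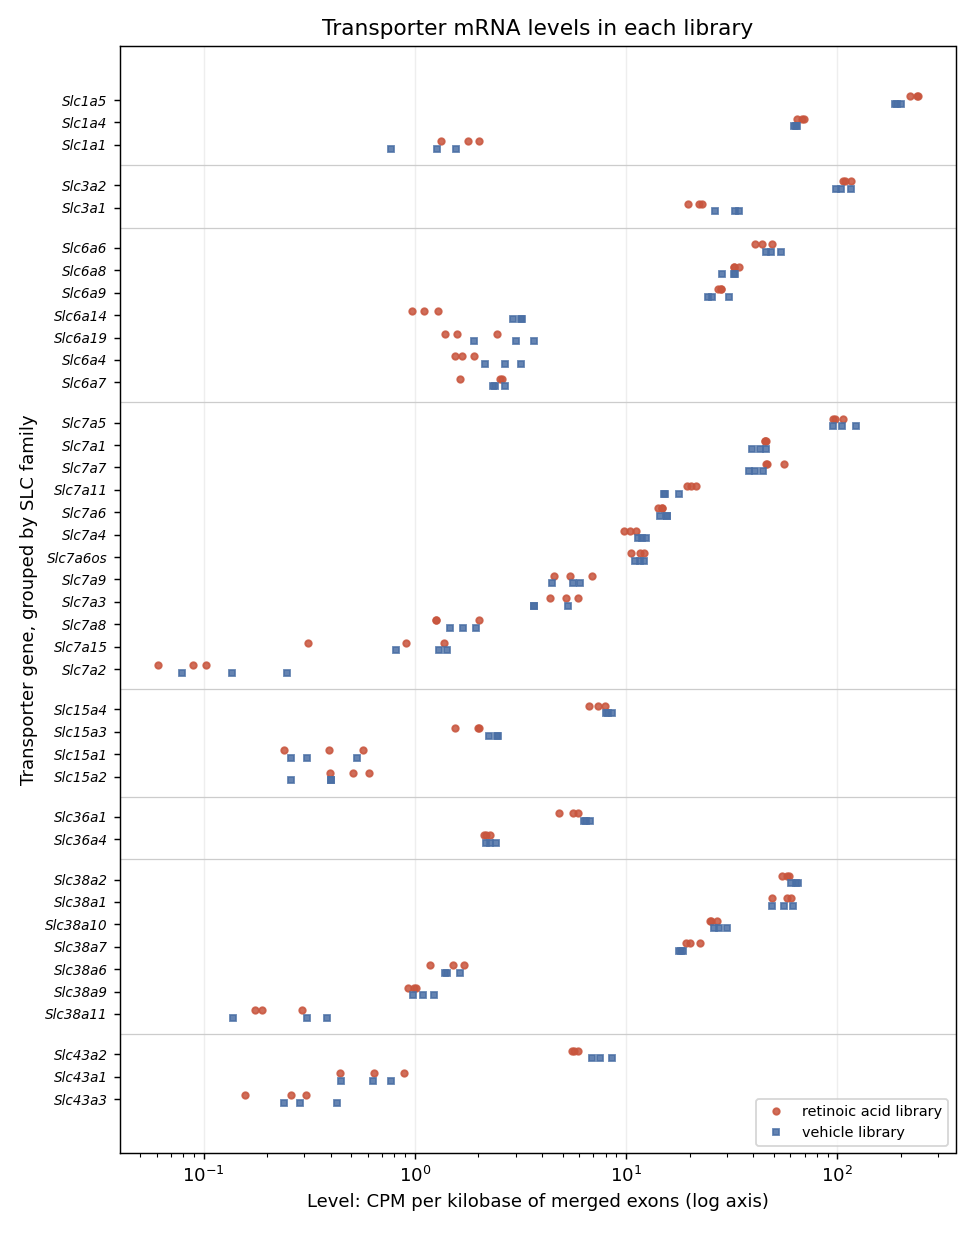
The plot shows the level of each of the 40 tested genes (y axis, grouped by family) as CPM per kilobase of merged exons (x axis, log scale), with 1 point for each retinoic acid library (circles, upper row) and each vehicle library (squares, lower row). Slc1a5, Slc3a2 and Slc7a5 lie near or above 100 in both groups, and the peptide carriers Slc15a1 and Slc15a2 lie below 1.

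Slc1a5 (ENSMUSG00000001918, mm10 chromosome 7, 16781346 to 16798274) had 1000.03, 996 and 920.1 CPM in retinoic acid libraries 1, 2 and 3, against 796, 835 and 779.9 CPM in vehicle libraries 1, 2 and 3. Every retinoic acid library was above every vehicle library. It rose 1.21-fold (log2 fold change 0.27, SE 0.06, edgeR adjusted p = 0.00575), and with any 1 library removed the edgeR adjusted p was at most 0.0362.

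Slc7a11 (ENSMUSG00000027737, mm10 chromosome 3, 50364936 to 50443613) encodes the light chain of the exchanger that imports cystine against glutamate and so feeds glutathione synthesis. It had 298, 271 and 281 CPM in retinoic acid libraries 1, 2 and 3, against 247, 213 and 211 CPM in vehicle libraries 1, 2 and 3. The groups did not overlap, though vehicle library 1 lay closer to the retinoic acid libraries than the other vehicle libraries did. The gene rose 1.27-fold (log2 fold change 0.34, SE 0.07, edgeR adjusted p = 0.00562) and with any 1 library removed the adjusted p was at most 0.0405.

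The other light chains of family 7 were not called. Slc7a7, which exports cationic amino acids at the basolateral membrane, had 153, 153 and 185 CPM in retinoic acid libraries 1, 2 and 3, against 134, 127 and 147 CPM in vehicle libraries 1, 2 and 3. Its groups did not overlap, and library 3 was the highest of each group. The log2 fold change was 0.27 (SE 0.08, edgeR adjusted p = 0.0545), so it just missed the threshold. DESeq2 called it (adjusted p = 0.0247), as did the authors' deposited table (FDR 0.0337), and so did edgeR without vehicle library 3 (adjusted p = 0.0332) or without library 3 of both groups (adjusted p = 0.0244). Slc7a5, which exchanges large neutral amino acids, had 369.6 ± 21.6 CPM with retinoic acid and 399 ± 52.2 CPM with vehicle (SD, n = 3 each; log2 fold change −0.11, SE 0.08). Slc7a6 and Slc7a8, basolateral exchangers, had log2 fold changes of −0.06 (SE 0.07) and −0.19 (SE 0.19). The heavy chain Slc3a2, shared by all 5 of these light chains, had 389 ± 16.6 CPM with retinoic acid and 374 ± 31.5 CPM with vehicle (log2 fold change 0.06, SE 0.07).

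Within each library, the level per kilobase of Slc7a11 relative to Slc3a2 was 0.196, 0.183 and 0.175 with retinoic acid, against 0.171, 0.155 and 0.131 with vehicle. For Slc7a7 relative to Slc3a2 it was 0.424, 0.434 and 0.485 with retinoic acid, against 0.391, 0.388 and 0.383 with vehicle. For Slc7a5 relative to Slc3a2 it was 0.875, 0.916 and 0.921 with retinoic acid, against 1.02, 0.965 and 1.06 with vehicle. The groups did not overlap for these 3 ratios, 2 of them higher and 1 lower with retinoic acid. Each of these 3 gave p = 0.1 in a two-sided exact permutation test, the smallest that 3 libraries against 3 allow. Benjamini-Hochberg adjustment over the 6 subunit ratios compared made it 0.15. For Slc7a6 and Slc7a8 relative to Slc3a2 the groups overlapped (exact permutation p = 0.2 and 0.5). How often ratios of other gene pairs do not overlap was not computed.

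**Figure D3:**
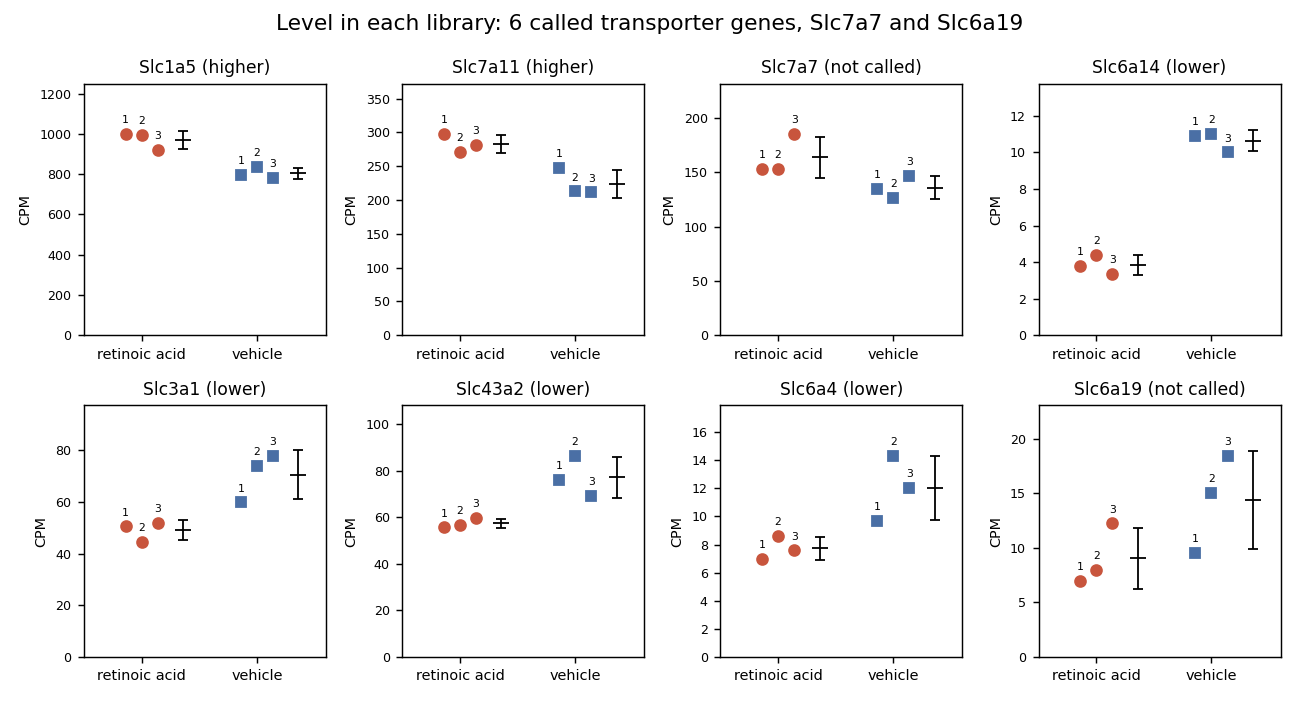
The panels show CPM (y axis, from 0) in each retinoic acid library (circles, left) and each vehicle library (squares, right), numbered by replicate, with the group mean ± SD beside them, for the 6 called genes, Slc7a7 and Slc6a19. The groups overlap only for Slc6a19, where retinoic acid library 3 (12.2 CPM) lies above vehicle library 1 (9.54 CPM).

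The largest change among the tested transporter genes was in Slc6a14 (ENSMUSG00000031089, mm10 chromosome X, 21714896 to 21742355), a sodium- and chloride-driven carrier that takes up neutral and cationic amino acids. It had 3.80, 4.41 and 3.34 CPM in retinoic acid libraries 1, 2 and 3, against 10.9, 11.0 and 10.0 CPM in vehicle libraries 1, 2 and 3. The groups lay far apart relative to their spread. The gene fell 2.79-fold (log2 fold change −1.48, SE 0.16, edgeR adjusted p = 3.5e-05), and the log2 fold change stayed between −1.57 and −1.39 with 1 library left out.

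Slc3a1 (ENSMUSG00000024131, mm10 chromosome 17, 85028347 to 85064243) encodes the heavy chain of the brush border exchanger for cystine and cationic amino acids, mutated in human cystinuria. It had 50.5, 44.6 and 51.8 CPM in retinoic acid libraries 1, 2 and 3, against 59.8, 74.1 and 77.9 CPM in vehicle libraries 1, 2 and 3. All retinoic acid libraries lay below all vehicle libraries, and the vehicle libraries were the more spread. It fell 1.44-fold (log2 fold change −0.52, SE 0.10, edgeR adjusted p = 0.00299). Its exons overlap those of Prepl on the opposite strand over 26.5% of their length, and Prepl had a log2 fold change of −0.17 (edgeR adjusted p = 0.171). The libraries were directional, but whether the counting used strand is not given in the sources used here, so the share of reads from Prepl was not tested.

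Slc7a9, the light chain that pairs with Slc3a1, had 14.4, 12.1 and 18.4 CPM in retinoic acid libraries 1, 2 and 3, against 11.9, 14.9 and 16.3 CPM in vehicle libraries 1, 2 and 3. Its groups overlapped (log2 fold change 0.07, SE 0.16). Per kilobase, Slc3a1 was 4.12, 4.33 and 3.32 times as abundant as Slc7a9 with retinoic acid, against 5.92, 5.85 and 5.65 times with vehicle. The ratio was lower in 3 of 3 retinoic acid libraries than in any vehicle library (exact permutation p = 0.1, adjusted over the 6 ratios 0.15), which is the smallest p this design allows.

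Slc43a2 (ENSMUSG00000038178, mm10 chromosome 11, 75531694 to 75577575), through which branched-chain amino acids, phenylalanine and methionine leave cells at the basolateral membrane, also fell. It had 55.7, 56.9 and 59.7 CPM in retinoic acid libraries 1, 2 and 3, against 75.9, 86.5 and 69.2 CPM in vehicle libraries 1, 2 and 3. The groups did not overlap. The fall was 1.35-fold (log2 fold change −0.43, SE 0.08, edgeR adjusted p = 0.00400), and the adjusted p was at most 0.0294 with any 1 library removed. Its relatives Slc43a1, a neutral amino acid carrier, and Slc43a3, a carrier of purine nucleobases, had log2 fold changes of 0.09 (SE 0.28) and −0.40 (SE 0.38) and were not called.

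Slc6a4 (ENSMUSG00000020838, mm10 chromosome 11, 76998603 to 77032340) carries serotonin and not an amino acid, and is included by its family. It had 6.98, 8.61 and 7.58 CPM in retinoic acid libraries 1, 2 and 3, against 9.71, 14.3 and 12.0 CPM in vehicle libraries 1, 2 and 3. The groups did not overlap, and the fall was 1.56-fold (log2 fold change −0.64, SE 0.16, edgeR adjusted p = 0.0199). Its call was lost without retinoic acid library 1 (adjusted p = 0.0996) or vehicle library 2 (adjusted p = 0.116), the only transporter call that leaving out 1 library removed.

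Slc6a19 had 6.94, 7.93 and 12.2 CPM in retinoic acid libraries 1, 2 and 3, against 9.54, 15.04 and 18.4 CPM in vehicle libraries 1, 2 and 3. Library 3 was the highest and library 1 the lowest of each group, and the groups overlapped. The log2 fold change was −0.66 (SE 0.23, edgeR adjusted p = 0.0996), as large as that of Slc6a4 but not called. It was called without retinoic acid library 3 (adjusted p = 0.00248), without vehicle library 1 (0.0277), without library 3 of both groups (0.0141) and by DESeq2 (0.0402).

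The remaining members of family 6 with enough reads were not called. Slc6a6, Slc6a8 and the glycine carrier Slc6a9 had log2 fold changes of −0.15 (SE 0.08), 0.07 (SE 0.07) and 0.05 (SE 0.08), and Slc6a6 was called lower without retinoic acid library 3 (edgeR adjusted p = 0.0370). The exons of Slc6a9 overlap those of Ccdc24 on the opposite strand over 27.8% of their length, so its value is uncertain. Slc6a7, a proline carrier of the brain, had −0.14 (SE 0.18). Slc1a1 had 14.8, 16.5 and 11.0 CPM in retinoic acid libraries 1, 2 and 3, against 10.5, 13.0 and 6.38 CPM in vehicle libraries 1, 2 and 3. Its groups overlapped, with library 3 the lowest of each group, and it was not called (log2 fold change 0.49, SE 0.21, edgeR adjusted p = 0.186). Removing retinoic acid library 3 gave an adjusted p of 0.0248. Its exons overlap those of 4430402I18Rik on the opposite strand over 31.9% of their length, and that gene had a log2 fold change of 0.26 (SE 0.13). Slc1a4 had a log2 fold change of 0.08 (SE 0.06).

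None of the 4 tested peptide transporters of family 15 was called by edgeR, DESeq2 or limma-voom, and 2 had an unadjusted edgeR p under 0.05. The share of all tested genes under that cutoff was not computed, so this count is not set against a background. Slc15a1 had 1.17, 2.78 and 1.92 CPM in retinoic acid libraries 1, 2 and 3, against 1.27, 2.61 and 1.51 CPM in vehicle libraries 1, 2 and 3, and the groups covered much the same range. With a log2 fold change of 0.09 and an SE of 0.37, a change of moderate size could not be detected here. Slc15a2, the high-affinity relative best known from kidney, was 0.49 higher on the log2 scale (SE 0.26) and not called. The lysosomal peptide and histidine carriers Slc15a3 and Slc15a4 had −0.36 (SE 0.13) and −0.18 (SE 0.08), with every retinoic acid library below every vehicle library for both. The exons of Slc15a3 overlap those of Tmem132a on the opposite strand over 28.1% of their length, and Tmem132a fell (log2 fold change −0.40, edgeR adjusted p = 0.0430), so the part of its reads in the value for Slc15a3 was not tested.

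In families 36 and 38, 2 and 7 genes were tested, and none was called by edgeR, DESeq2 or limma-voom. Of them, 1 and 2 had an unadjusted edgeR p under 0.05, again without a share over all genes. Slc36a1, a proton-driven carrier of small amino acids at the brush border and in lysosomes, had 31.5, 27.0 and 33.3 CPM in retinoic acid libraries 1, 2 and 3, against 37.9, 35.5 and 36.5 CPM in vehicle libraries 1, 2 and 3. The groups did not overlap, but the gene was not called (log2 fold change −0.26, SE 0.09, edgeR adjusted p = 0.104). It was called when retinoic acid library 3 was left out (edgeR adjusted p = 0.0352) or when both libraries numbered 3 were (0.0467). Slc38a2, whose mRNA is known to rise when amino acids are scarce, had a log2 fold change of −0.14 (SE 0.06), and Slc38a1 had 0.01 (SE 0.09). Slc38a9, a lysosomal carrier that reports arginine to mTORC1, had −0.18 (SE 0.11), and Slc38a7, a lysosomal exporter of glutamine, had 0.17 (SE 0.07). The others of these families, Slc36a4, Slc38a6, Slc38a10 and Slc38a11, had log2 fold changes from −0.33 to −0.02, and their groups overlapped.

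The remaining tested genes of family 7 were not called. Slc7a1 and Slc7a3, which take up arginine and lysine, had log2 fold changes of 0.08 (SE 0.06) and 0.30 (SE 0.15), and Slc7a3 was called without vehicle library 3 (edgeR adjusted p = 0.0433). Slc7a4 had −0.19 (SE 0.08), with every retinoic acid library below every vehicle library. Slc7a2, an arginine carrier known from liver and macrophages, had 0.769 CPM with retinoic acid and 1.41 CPM with vehicle on average (log2 fold change −0.88, SE 0.44). Slc7a15 had −0.46 (SE 0.40) and Slc7a6os −0.02 (SE 0.08), with overlapping groups.

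The other 24 rows had too few reads to be tested, with 1 to 45 reads over all 6 libraries and fewer than 10 reads in 11 of them. They include the glial and neuronal glutamate carriers Slc1a2, Slc1a3, Slc1a6 and Slc1a7. In family 6 they include carriers of GABA, noradrenaline, dopamine and glycine (Slc6a11, Slc6a13, Slc6a2, Slc6a3 and Slc6a5), with Slc6a15 and Slc6a17. They also include the imino acid carrier Slc6a20a and its relative Slc6a20b, and the split of reads between these was not tested. Slc6a20a had 24 reads over the retinoic acid libraries and 21 over the vehicle libraries. The rest were Slc7a10, Slc7a12, Slc7a14, Slc15a5, Slc36a2, Slc36a3, Slc38a3, Slc38a4, Slc38a5 and Slc38a8.

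Among these, Slc7a10, a carrier of small neutral amino acids, had no reads in the 3 retinoic acid libraries, against 9, 3 and 7 reads in vehicle libraries 1, 2 and 3. With a floor of 3 counts set for the retinoic acid libraries, its pooled vehicle level was 7.17 times that floor. This value leaves out the counting error of the vehicle reads and is not a lower bound on the fold. The authors' deposited table lists it with an FDR of 0.0319. Of its exon length, 17.9% overlaps Lrp3 on the opposite strand, which had 0.914 CPM with retinoic acid and 1.29 CPM with vehicle. The authors' deposited table, which lists these counts beside its statistics, calls 3 of the 64 genes higher and 5 lower at an FDR under 0.05. These are the 6 called here with Slc7a7 and Slc7a10.

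The sodium-proton exchanger Slc9a3, which sustains the proton gradient used by Slc15a1, had 0.469, 1.29 and 1.92 CPM in retinoic acid libraries 1, 2 and 3, against 2.25, 2.90 and 3.49 CPM in vehicle libraries 1, 2 and 3. The groups did not overlap, but the gene was not called (log2 fold change −1.24, SE 0.40, edgeR adjusted p = 0.0673). DESeq2 (adjusted p = 0.0376) and limma-voom (0.0447) called it lower.

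Of 10 amino acid transporters outside these families 7 were tested, with a median log2 fold change of −0.15. Of these 1 fell, against 4.09% of all tested genes, and none rose. The gene that fell was Slc16a10, which lets aromatic amino acids leave the cell at the basolateral side. It had 21.7, 26.0 and 19.5 CPM in retinoic acid libraries 1, 2 and 3, against 47.3, 39.9 and 35.7 CPM in vehicle libraries 1, 2 and 3. These groups did not overlap (log2 fold change −0.88, SE 0.12, edgeR adjusted p = 0.000310). The lysosomal carriers Ctns, for cystine, and Slc66a1, for cationic amino acids, had log2 fold changes of −0.21 (SE 0.10) and −0.15 (SE 0.15).

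Beside these, enterocyte markers were read as a measure of absorptive cells. Of 12 tested, 2 fell and none rose (median log2 fold change −0.28), against 4.09% of all tested genes that fell. The log2 fold change was below 0 for 10 of them and above 0 for 2, with Apoa1 the highest (0.48, SE 0.15, edgeR adjusted p = 0.0670, groups overlapping). Their summed level was 392 to 621 CPM in retinoic acid libraries and 539 to 663 CPM in vehicle libraries. Most of it was Sis, at 291 ± 80.2 CPM with retinoic acid and 383 ± 28.6 CPM with vehicle (SD, n = 3 each). The 2 that fell were the brush border phosphatase Alpi (log2 fold change −0.83, SE 0.17) and the peptidase Enpep (−0.78, SE 0.20), and the call of Enpep held in 3 of the 6 fits with 1 library left out. DESeq2 called Alpi but not Enpep (adjusted p = 0.144), and the authors' deposited table lists Enpep with an FDR of 0.237. By limma-voom both were called lower (adjusted p = 0.0113 for Alpi and 0.0233 for Enpep). The 5 stem cell markers summed to 427 to 451 CPM in retinoic acid libraries and 599 to 665 CPM in vehicle libraries. The part of either cell type in the lower values of Slc3a1, Slc6a14, Slc43a2 and Slc16a10 was not tested.

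Genes of the amino acid response through the kinase GCN2 and ATF4 were taken as a list of 24, of which 23 were tested. Of these 2 rose and 1 fell, against 5.37% and 4.09% of all tested genes. Their median log2 fold change was 0.08, with 17 genes above 0 and 6 below. All retinoic acid libraries lay above all vehicle libraries for 6 genes (background 12.9%), and all lay below for 1 (background 12.6%). The 2 that rose were Ddit4, an inhibitor of mTORC1 (log2 fold change 0.33, SE 0.07, edgeR adjusted p = 0.00769), and the stress transcription factor gene Ddit3 (0.26, SE 0.07, edgeR adjusted p = 0.0271), whose call held in 1 of the 6 fits with 1 library left out (adjusted p up to 0.132). The stress response gene Nupr1 fell (−0.24, SE 0.07, edgeR adjusted p = 0.0352), and its call held in 2 of those 6 fits (adjusted p up to 0.163). Atf4 itself had 989.7 ± 6.91 CPM with retinoic acid and 934 ± 60.6 CPM with vehicle (SD, n = 3 each) and was not called. Its target Asns, which makes asparagine, had 292 ± 11.5 CPM with retinoic acid and 257 ± 1.65 CPM with vehicle, with no overlap between the groups, and was not called (edgeR adjusted p = 0.0569). DESeq2 (adjusted p = 0.0312) and limma-voom (0.0489) called it higher, and the authors' deposited table gives it an FDR of 0.0306. Of 28 tested genes that sense amino acids for mTORC1 none was called, with a median log2 fold change of −0.03. DESeq2 and limma-voom called none of the 28 either. An unadjusted edgeR p under 0.05 was found for 3 (Rragd, Sesn2 and Sesn3), a count given without the share over all genes.

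**Figure D4:**
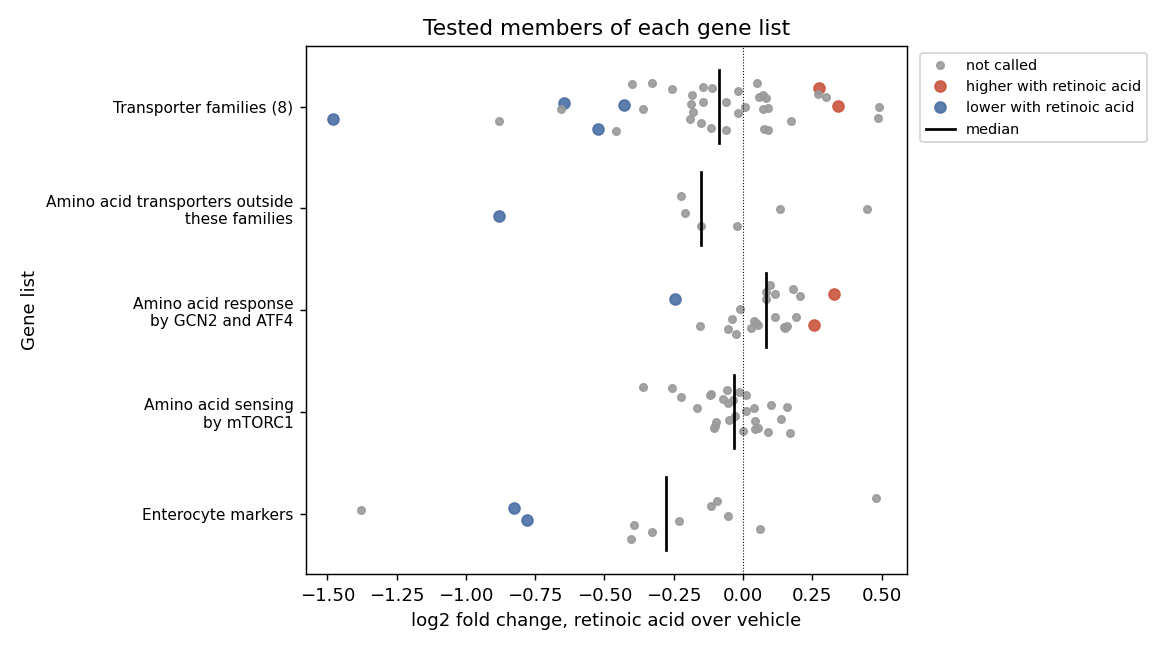
The plot shows the log2 fold change of retinoic acid over vehicle (x axis) for each tested gene of the transporter families and of 4 other gene lists (y axis; the position within a row has no meaning), with the median of each list as a black bar. The medians run from −0.28 for enterocyte markers to 0.08 for the amino acid response, and called genes are drawn larger.

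Promoter sequences are shown because several transporter genes are known to respond to ATF4 through an element near their start. RefSeq windows from 250 bases before to 50 bases after a start (GRCm38.p6, the same coordinates as mm10) were available for 47 of the 64 genes and for 29 of the 40 tested ones, some with several starts. The ATF4 element was searched as TGATGNAA on both strands. It was found in 5 of 64 transporter windows, in 4 of the 40 windows of tested genes and in 3.97% of all 32851 windows. Those of tested genes include overlapping windows of Slc7a7 that hold the same TGATGCAA match, which is thus counted more than once. The tested genes with a window that holds the element were Slc7a11, Slc7a7 and Slc1a4. No window was available for Slc1a5, so it was not searched for this or any other motif. Slc7a11 rose, Slc7a7 missed the threshold (edgeR adjusted p = 0.0545) and Slc1a4 was not called (edgeR adjusted p = 0.495). Slc6a14 is shown as the tested gene with the largest change. The windows are chr3:50443564-50443863 for Slc7a11, chr14:54417895-54418194 for Slc7a7 and chr11:20332664-20332963 for Slc1a4, all on the minus strand, and chrX:21714650-21714949 on the plus strand for Slc6a14. Capitals mark each match of the element, read 5′ to 3′ along the gene.
Slc7a11: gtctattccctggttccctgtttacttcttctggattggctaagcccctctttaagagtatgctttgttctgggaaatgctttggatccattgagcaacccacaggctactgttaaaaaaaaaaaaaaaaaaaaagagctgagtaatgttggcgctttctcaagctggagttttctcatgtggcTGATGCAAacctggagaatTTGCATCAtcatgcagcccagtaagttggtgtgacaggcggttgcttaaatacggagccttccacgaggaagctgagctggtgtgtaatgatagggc
Slc7a7: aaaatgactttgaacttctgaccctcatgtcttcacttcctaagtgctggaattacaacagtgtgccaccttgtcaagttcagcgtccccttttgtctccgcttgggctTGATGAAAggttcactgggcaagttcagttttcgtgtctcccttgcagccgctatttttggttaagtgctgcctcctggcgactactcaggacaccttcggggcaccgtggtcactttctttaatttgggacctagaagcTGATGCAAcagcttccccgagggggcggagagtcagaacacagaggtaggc
Slc1a4: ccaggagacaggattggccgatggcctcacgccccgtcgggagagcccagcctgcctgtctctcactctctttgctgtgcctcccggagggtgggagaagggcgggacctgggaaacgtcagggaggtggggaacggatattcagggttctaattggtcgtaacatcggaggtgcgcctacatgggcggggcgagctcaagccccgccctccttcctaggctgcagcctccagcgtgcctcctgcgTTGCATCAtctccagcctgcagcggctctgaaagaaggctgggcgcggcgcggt
Slc6a14: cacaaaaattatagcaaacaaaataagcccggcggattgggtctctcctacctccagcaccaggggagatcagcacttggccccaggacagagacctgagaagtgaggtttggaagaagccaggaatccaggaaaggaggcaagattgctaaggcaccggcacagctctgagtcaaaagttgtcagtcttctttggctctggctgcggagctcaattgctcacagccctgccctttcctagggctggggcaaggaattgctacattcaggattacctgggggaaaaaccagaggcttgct

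In Slc7a11 the element occurs in both orientations, from position −66 to −59 and from −47 to −40 relative to the start. In the Slc7a7 window shown the TGATGCAA match lies across the start and a TGATGAAA match lies upstream, from −141 to −134. Relative to another Slc7a7 start, the same TGATGCAA lies from −243 to −236. In Slc1a4 the match lies across the start, on the opposite strand. These matches are descriptions of letters and not sites shown to be bound.

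Motifs of retinoic acid receptors were searched in the same windows, on both strands, as the single core AGGTCA and as direct repeats of AGNTCA spaced by 1, 2 or 5 bases. The core was in 10 of 64 transporter windows and in 16.3% of all windows, and in none of the 6 windows of 5 called genes. The repeats were in none of the 64 transporter windows and in 0.107% to 0.219% of all windows. The antioxidant motif TGACNNNGC, bound by NRF2 and searched on both strands, was in 10 of 64 transporter windows, none of them of a called gene, and in 12.4% of all windows.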

How the data were processed

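Directional poly(A) RNA-seq libraries of 3 retinoic acid and 3 vehicle organoid samples were analysed, grouped by the labels' treatment. The deposited table holds raw read counts per gene, and mm10 is the build named in the submitters' processing notes. No aligner, annotation or strand setting is given in the sources used here. Beside the counts, it holds the authors' DESeq statistics, per the file headers: a p-value, an FDR and a log2 fold change per gene.

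The 64 members, the other gene lists and the tests were chosen with earlier results of these data known. Counts were tested with edgeR 4.0.16 in R 4.3.3 (filterByExpr, TMM scaling, quasi-likelihood test, Benjamini-Hochberg adjustment over 13700 genes, threshold 0.05), checked on simulated data. All 6 libraries and no covariate entered the fit. CPM uses TMM-scaled library sizes, and the 6 libraries had scaling factors of 0.978 to 1.02. Total counts of 14919144 to 21833846 per library and a biological coefficient of variation of 7.81% set the precision. Exon lengths and overlaps were taken from GENCODE M21, and coordinates from the deposited table. Older symbols in the table (such as Pqlc2 for Slc66a1) were matched by name tables or by hand, and Samtor had no matching row. Some genes of the families and lists are not reported here.

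Named genes were every called member, a list of 26 gut and cell transporters whether called or not, untested rows, and up to 6 called genes of each other list. Other genes of these families, and uncalled genes of the other lists, were named after their values were seen. Libraries of 1 group differed by more than sampling noise (chi-square per gene 4.09 to 11.1), so all were kept as replicates. Alternatives were DESeq2 size factors, no filter, a minimum of 10 counts, DESeq2 1.42.0, limma-voom (limma 3.58.1), a replicate block and each library left out. Subunit ratios were tested by exact permutation in scipy 1.17.1. Counting intervals and floors cover counting error only, and the floor for Slc7a10 leaves out that of the vehicle reads.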

Additional observations from a re-analysis of the deposited data

How the results depend on the processing

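The 6 transporter calls and the direction of the median log2 fold change (−0.09) held with DESeq2 size factors, a minimum of 10 counts, DESeq2 and limma-voom. With no filter on low counts 4 transporter genes were called higher, not 2, and 6 lower, not 4, adding Slc7a7, Slc1a1, Slc6a19 and Slc7a10. Without this filter 968 of all genes were called higher and 752 lower, and the cause was not tested. With 1 library left out the counts ran from 2 to 4 higher and from 3 to 7 lower, with 4 higher without vehicle library 3 and 7 lower without retinoic acid library 3. Over all genes they ran from 443 to 978 higher (736 with all libraries) and from 289 to 787 lower (560 with all libraries). The lowest counts were those without retinoic acid library 1, and 477 higher and 355 lower were called without vehicle library 1 and 346 lower without vehicle library 2. Same-numbered libraries deviated together with correlations of 0.128, 0.0975 and 0.257, and each correlated best with its own number, a hint from the data and not the design. The labels do not say that the numbers pair the libraries. With the replicate number as a block, 4 transporter genes were called higher (adding Slc7a7 and Slc1a1) and 8 lower (adding Slc6a19, Slc6a6, Slc36a1 and Slc38a2), and 1224 of all genes higher and 1052 lower. Some uncalled genes near 0 changed sign. Slc7a9 ran from −0.10 to 0.19 with 1 library left out, Slc15a1 from −0.22 to 0.46, Slc38a1 from −0.072 to 0.094 and Slc43a1 from −0.21 to 0.32. Leaving out library 3 of both groups, chosen after seeing the data, gave −0.0040 for Slc7a9 and −0.026 for Slc15a1. Of 338 values of single genes under the alternatives, 304 kept direction and call, 20 gained a call, 2 lost it and 12 changed sign. Values of genes under about 3 CPM were imprecise, such as that of Slc15a1, whose SE was 0.37 on the log2 scale. The part of depth in this was not tested.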
